A study of Homo sapiens with 18 samples.

Results

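The glucose transporter SLC2A1 and 9 enzymes of glycolysis were followed through RNAseq of human cells treated with a microRNA mimic. The members were taken by gene symbol and are SLC2A1, HK2, PFKP, ALDOA, GAPDH, PGK1, PGAM1, ENO1, PKM and LDHA. All 10 were listed in both cell lines, among 16715 genes listed in either line, and all 10 passed the filter on low values in both. MCF10A is a near-normal human breast epithelial line, and hTERT RPE-1 is a line of human retinal pigment epithelium immortalised with telomerase. Each line had 3 groups of 3 biological replicates, siNT (a non-targeting siRNA), a mimic of hsa-miR-28-5p (called miR-28 here) and one of hsa-miR-708-5p (called miR-708), all at 30 nM for 72 h, with replicates 7, 8 and 9 for MCF10A, and 1, 2 and 3 for the retinal line, called RPE-1 from here on. The siNT libraries were transfected too, so every group carries a small RNA, and a mimic raises a microRNA above what the cells make themselves. The culture media differ between the lines, with added insulin, EGF, hydrocortisone and cholera toxin in MCF10A, so a difference between lines and a difference between media cannot be told apart.

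Glycolysis carries glucose to pyruvate in the cytosol and yields ATP and NADH. Glucose enters through facilitative transporters, is trapped by hexokinase, passes the committed step at phosphofructokinase and is split by aldolase, and the lower enzymes then earn ATP before lactate dehydrogenase returns NAD+. Many of these genes are known targets of the hypoxia-inducible factor HIF1, and proliferating cultured cells express most of them at high levels.

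The mature sequence of hsa-miR-708-5p is shown because its seed, bases 2 to 8 in capitals, is the part that pairs with a target. It was read from RefSeq on GRCh38.p14 at chr11:79402077-79402099 on the minus strand. The mature strand hsa-miR-28-5p is named only.

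hsa-miR-708-5p: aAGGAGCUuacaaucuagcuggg

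Matches to this seed were searched in the annotated 3′ UTR of 1 transcript per gene (GENCODE 44, hg38), on the transcribed strand, as the 6mer GCTCCT and as the longer 7mers AGCTCCT and GCTCCTA, each of which contains it. Of the 10 members, 5 held the 6mer, namely SLC2A1, HK2, PGK1, PGAM1 and LDHA, beside 35.6% of the tested genes with a 3′ UTR in MCF10A and 35.8% in RPE-1. A 7mer was held by 2 members, HK2 and PGAM1, beside 18.7% of genes in each line. ALDOA, GAPDH, ENO1 and PKM held none, and in PFKP none lay in its reference transcript. The sites below are printed with 30 bases of context, the match in capitals and the coordinates of the match, because they show which members could pair with the seed. A match is a run of letters and does not show binding. No match says only that these letters were not in that UTR.

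SLC2A1, chr1:42926920-42926925, minus strand, exon 10: gccgggcctgggGCTCCTttctccagccag
SLC2A1, chr1:42925529-42925534, minus strand, exon 10: agcacttcatctGCTCCTtcatcacaagtc
HK2, chr2:74891988-74891993, plus strand, exon 18: cggttgcttctgGCTCCTccttcccctgtg
HK2, chr2:74892079-74892084, plus strand, exon 18: ccacagcaattgGCTCCTccatctagagat
HK2, chr2:74892857-74892863, plus strand, exon 18: ctgtctggtgtAGCTCCTctgctgctccca
PGK1, chrX:78126983-78126988, plus strand, exon 11: ggagtccttagtGCTCCTttatccaatttg
PGAM1, chr10:97433209-97433215, plus strand, exon 4: aatataggatcAGCTCCTtgacctctgagg
LDHA, chr11:18407613-18407618, plus strand, exon 8: tataacttcctgGCTCCTtcactgaacatg

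Estimated depth was 19.4 to 31.7 M reads on genes in MCF10A and 23.8 to 40.3 M in RPE-1, so counting error is small for the members, whose lowest library value was 937. MCF10A listed 6 of 6 basal epithelial markers, with KRT5 at a mean of 84082 in siNT libraries. The RPE-1 table listed 7 of 9 markers of retinal pigment epithelium, with MITF at 1908 and RLBP1 at 2.4, and RPE65 and TYR had no row. One RPE-1 library stood apart. In miR-28 replicate 1, nuclear ribosomal RNA genes took 15.1% of the summed signal, beside 4.23% to 7.20% in the other 8 libraries of the line. Within that group of 3, replicate 1 was lowest and replicate 2 highest in all 10 members, whereas over all tested genes replicate 1 was lowest in 35.0% and replicate 2 highest in 37.6%. The members also moved together in siNT groups. Replicate 3 in RPE-1 and replicate 9 in MCF10A were each lowest in 9 members, beside 38.2% and 28.5% of genes. Calls of members in a comparison are therefore not separate results. The part of the ribosomal share in the fold changes was not tested, and the summed share of the members is also given without those genes. For the members, values without miR-28 replicate 1 or 2 are given beside the results that turn on them.

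Normalised values are estimated reads divided by a size factor of the library. Fold changes are differences of mean log2(value + 1) between a mimic and siNT, and a gene was called at a Benjamini-Hochberg adjusted p below 0.05, taken over all genes tested in the line. In bulk RNA, fewer cells of a type and less RNA per cell cannot be told apart.

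Most members had lower means with either mimic, and SLC2A1, the uptake step, fell most among them in each comparison. SLC2A1 and GAPDH fell in all 4 comparisons of a mimic with siNT, PGK1 in 3, PFKP, PGAM1, ENO1 and LDHA in 2, HK2 and ALDOA in 1, and PKM in none. In MCF10A, miR-28 lowered 5 of 10 members (SLC2A1, HK2, GAPDH, PGK1 and PGAM1) and raised none, where 22.7% of all 14726 tested genes were called and 12.0% were called lower. With miR-708, 3 members fell (SLC2A1, GAPDH and PGAM1), beside 32.8% of genes called and 17.3% called lower. In RPE-1, miR-28 lowered 7 members (SLC2A1, PFKP, ALDOA, GAPDH, PGK1, ENO1 and LDHA), beside 46.8% of all 14527 tested genes called and 23.5% called lower. With miR-708, 6 of these 7 fell, all but ALDOA, beside 31.2% called lower, and HK2 rose, beside 30.9% called higher and 62.1% called in all. The background is therefore high, most of all in RPE-1, and the members' counts are read against it. With library-size scaling, the members called lower with miR-28 and miR-708 were 5 and 1 in MCF10A and 6 and 2 in RPE-1. Of the genes called in these 4 comparisons, 47.1%, 47.3%, 49.9% and 49.7% were higher, and with library-size scaling 66.1%, 67.6%, 59.4% and 71.8% were, and with upper-quartile scaling 59.2% were in the first.

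The median log2 fold change of the 10 members was -0.39 with miR-28 and -0.20 with miR-708 in MCF10A, and -0.65 and -0.44 in RPE-1. Over all tested genes the 4 medians lay between -0.00 and 0.01, which the size factors of the deposited values hold close to no change. With library-size scaling these 4 medians over all tested genes were 0.12, 0.14, 0.09 and 0.32. Counting only separation of the 3 mimic libraries from the 3 siNT libraries, 7 members in MCF10A were lower with no overlap with miR-28, beside 22.1% of genes, and 4 were with miR-708, beside 23.9%. In RPE-1 these counts were 6, beside 27.5%, and 9, beside 34.9%. The comparisons of the 2 mimics with siNT in a line share their siNT libraries.

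**Figure D1:**
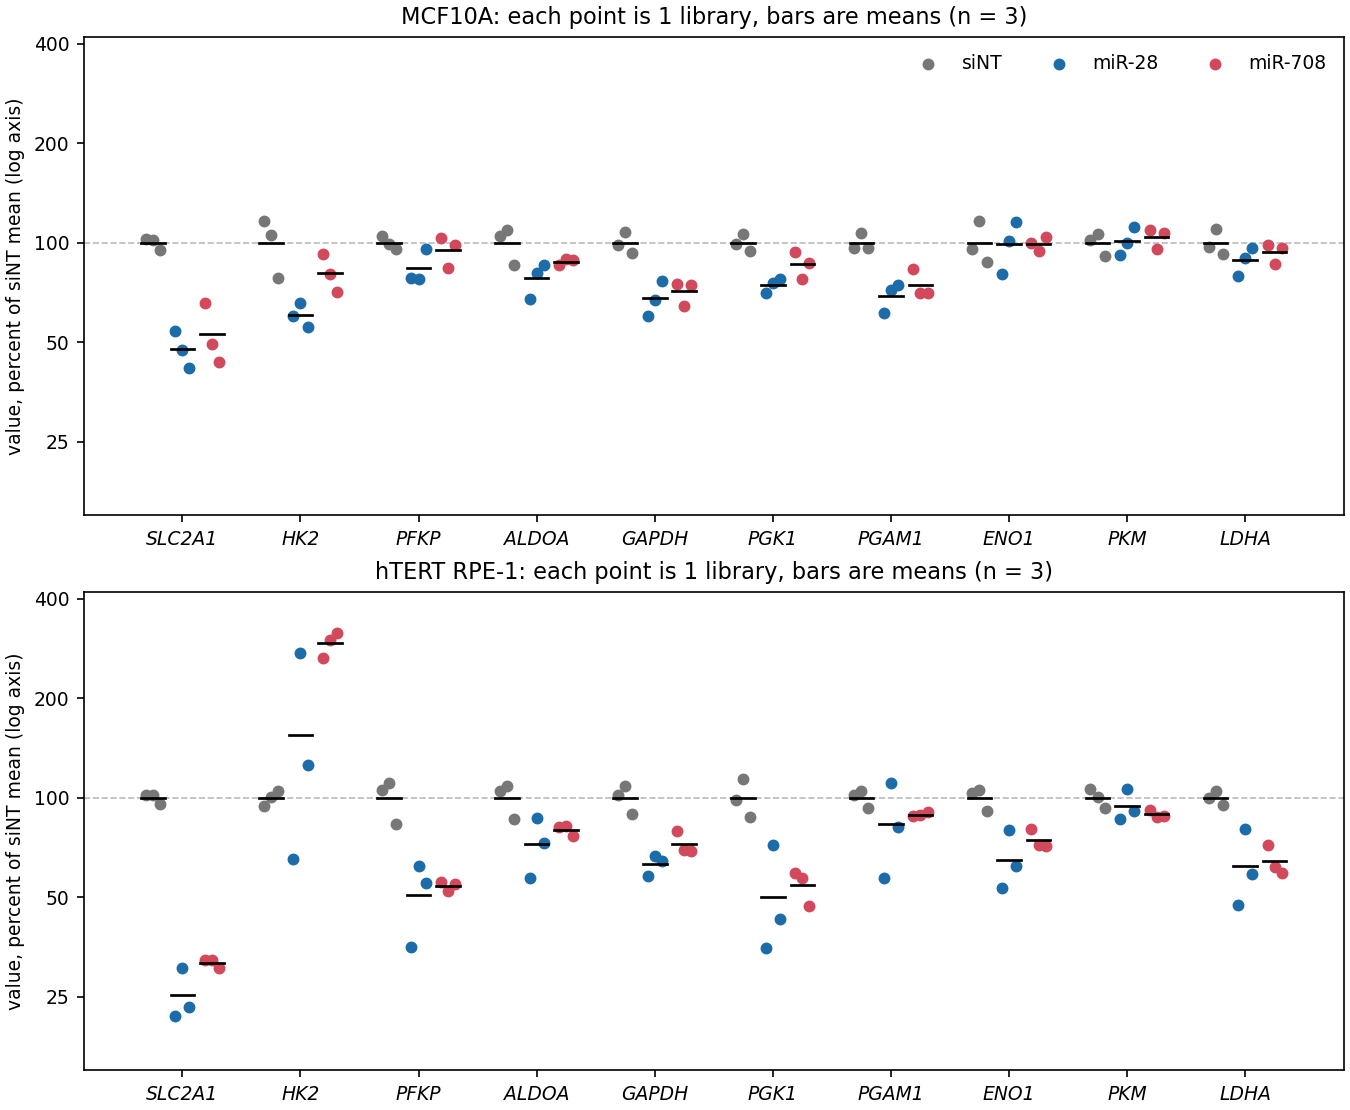
Value of each of the 10 members in every library as a percent of the siNT mean of its line, on a log axis, with each point 1 library and each bar a mean of 3, in MCF10A above and RPE-1 below (siNT grey, miR-28 blue, miR-708 red). In RPE-1 the SLC2A1 means lie at 25.3% and 31.7% of siNT, and the HK2 means at 155% and 293% with miR-28 libraries on both sides of siNT.

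SLC2A1 encodes GLUT1, the main glucose transporter of most cultured cells (chr1:42925353-42958893, minus strand). Its normalised values in MCF10A were 2310, 2296 and 2135 in siNT replicates 7, 8 and 9, then 1212, 1064 and 937 with miR-28 and 1474, 1107 and 981 with miR-708. All 6 mimic libraries lay below the 3 siNT libraries, at mean levels of 47.7% and 52.8% of siNT. The log2 fold changes were -1.08 (SE 0.15, adjusted p = 0.000839) and -0.94 (SE 0.15, adjusted p = 0.000771). In the separately scaled table of RPE-1, the 3 siNT libraries read 22282, 22161 and 20914. The 3 miR-28 libraries of that line read 4768, 6651 and 5084, and the 3 miR-708 libraries 7026, 7021 and 6646. Here the groups were far apart, at 25.3% and 31.7% of the siNT mean. SLC2A1 fell by 2.0 on the log2 scale with miR-28 (SE 0.12, adjusted p = 1.03e-06) and by 1.66 with miR-708 (SE 0.12, adjusted p = 1.29e-06). It was called in these 4 comparisons under each of 15 alternatives, which include leaving out each library of the line.

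HK2 is hexokinase 2, the inducible isoenzyme that traps glucose as glucose 6-phosphate (chr2:74834127-74893359, plus strand). It fell in MCF10A with miR-28 and rose in RPE-1 with miR-708. MCF10A libraries read 2914, 2643 and 1962 with siNT, 1502, 1647 and 1399 with miR-28, and 2319, 2011 and 1782 with miR-708. The miR-28 libraries lay below all siNT libraries, whereas the miR-708 libraries overlapped them. HK2 fell by 0.71 on the log2 scale with miR-28 (SE 0.15, adjusted p = 0.00689), and the difference with miR-708 was -0.29 (SE 0.15, adjusted p = 0.159). With the replicate number as a block, the latter was called (adjusted p = 0.0434), as it was without siNT replicate 9 (adjusted p = 0.0313).

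In RPE-1, HK2 read 1651, 1757 and 1839 with siNT and 4629, 5251 and 5503 with miR-708. The mean with miR-708 was 293% of siNT, with no overlap, and HK2 rose by 1.55 on the log2 scale (SE 0.38, adjusted p = 0.00441). The miR-28 libraries read 1145, 4796 and 2204, so replicate 1 lay below the siNT libraries and replicate 2 reached the miR-708 range. Their coefficient of variation was 69.2%, and the log2 fold change of 0.39 (SE 0.38, adjusted p = 0.415) was not called. Without replicate 1 it was 0.90 (adjusted p = 0.0103), and without replicate 2 it was -0.14, so 1 library decides both its size and its direction. HK2 holds 3 of the 8 seed matches printed above, the most of any member. Its 3′ UTR is 2418 bases long, beside a median of 1373 over tested genes in RPE-1. Whether these matches bear on its values was not tested.

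PFKP, the platelet isoform of phosphofructokinase (chr10:3066333-3137718, plus strand), differed between the lines. Its MCF10A values were 4449, 4189 and 4054 with siNT, 3302, 3294 and 4040 with miR-28, and 4371, 3543 and 4169 with miR-708. The miR-28 libraries lay below siNT, replicate 9 only just (4040 against 4054), and the miR-708 libraries overlapped it. Neither difference was called, at -0.26 (SE 0.11, adjusted p = 0.113) and -0.08 (adjusted p = 0.638). RPE-1 read 9736, 10190 and 7644 with siNT, 3243, 5718 and 5069 with miR-28, and 5116, 4805 and 5038 with miR-708. Both mimics separated fully from siNT, at 50.9% and 54.3% of its mean. PFKP fell by 1.0 (SE 0.19, adjusted p = 0.00143) and 0.87 (SE 0.19, adjusted p = 0.002) on the log2 scale.

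ALDOA is aldolase A, which splits fructose 1,6-bisphosphate (chr16:30064164-30070457, plus strand). With siNT, MCF10A libraries read 16906, 17673 and 13880. They read 10909, 13120 and 13845 with miR-28 and 13804, 14383 and 14336 with miR-708. The siNT replicate 9 was almost level with the mimic libraries, and neither difference was called, at -0.36 (SE 0.13, adjusted p = 0.0622) and -0.18 (adjusted p = 0.293). With miR-28 it was called with the replicate block (adjusted p = 0.0438) and without siNT replicate 9 (adjusted p = 0.0425). In RPE-1, ALDOA read 29278, 30350 and 24118 with siNT, 15927, 24281 and 20313 with miR-28, and 22704, 23000 and 21337 with miR-708. It fell by 0.48 with miR-28 (SE 0.15, adjusted p = 0.0238), although replicate 2 overlapped siNT. That call was lost without siNT replicate 1 (adjusted p = 0.0793) or 2 (adjusted p = 0.0859), without miR-28 replicate 1 (adjusted p = 0.0658) or 3 (adjusted p = 0.0513), and with library-size scaling (adjusted p = 0.0733). The log2 fold change with miR-708 was -0.31 (SE 0.15, adjusted p = 0.0945), and it was called in the fits that left out miR-28 replicate 1 (adjusted p = 0.0354) or 2 (adjusted p = 0.0464), since all groups share 1 estimate of the spread.

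GAPDH, the dehydrogenase that makes NADH and opens the energy-yielding steps (chr12:6534512-6538374, plus strand), had the highest level per kilobase of transcript of all members in both lines. MCF10A read 70704, 77340 and 66761 with siNT, 43076, 48118 and 54983 with miR-28, and 53770, 46145 and 53251 with miR-708. The mimic libraries lay below every siNT library. GAPDH fell by 0.56 (SE 0.15, adjusted p = 0.0225) and 0.49 (SE 0.15, adjusted p = 0.0285) on the log2 scale. The miR-28 call was lost without siNT replicate 7 (adjusted p = 0.0545) or 8 (adjusted p = 0.0804) or miR-28 replicate 8 (adjusted p = 0.0757). The miR-708 call was lost without siNT replicate 7, 8 or 9 (adjusted p = 0.0649, 0.0966 and 0.0527) or miR-708 replicate 8 or 9 (adjusted p = 0.111 and 0.0642), and with library-size scaling (adjusted p = 0.0748).

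GAPDH in RPE-1 read 111920, 119228 and 98134 with siNT, 63654, 73149 and 70712 with miR-28, and 86838, 76263 and 75706 with miR-708. Again no library of a mimic reached siNT. The falls were 0.66 (SE 0.14, adjusted p = 0.00343) and 0.46 (SE 0.14, adjusted p = 0.016) on the log2 scale. The second was lost without siNT replicate 1 (adjusted p = 0.0560) or 2 (adjusted p = 0.0628) or miR-708 replicate 3 (adjusted p = 0.0599), and with library-size scaling it was -0.14 (adjusted p = 0.422). The annotation names 65 GAPDH pseudogenes, none of them listed in these tables, so reads shared with such copies cannot be told apart.

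PGK1, phosphoglycerate kinase 1, makes the first ATP of the pathway (chrX:77910739-78129295, plus strand, a span that also holds ATP7A on the same strand and PGAM4 on the other). Its values in MCF10A were 17396, 18722 and 16590 with siNT, 12402, 13241 and 13648 with miR-28, and 16470, 13638 and 15313 with miR-708. Both mimics lay below siNT in every library, by a narrow margin with miR-708. PGK1 fell by 0.42 with miR-28 (SE 0.11, adjusted p = 0.0174), a call lost without siNT replicate 8 (adjusted p = 0.0662) or miR-28 replicate 8 (adjusted p = 0.0554), and was at -0.22 with miR-708 (adjusted p = 0.145). RPE-1 read 22326, 25827 and 19726 with siNT, 7958, 16343 and 9732 with miR-28, and 13440, 12929 and 10668 with miR-708. The means were 50.1% and 54.6% of siNT. PGK1 fell by 1.06 (SE 0.22, adjusted p = 0.00324) and 0.87 (SE 0.22, adjusted p = 0.0062), the second at -0.55 with library-size scaling (adjusted p = 0.0585).

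PGAM1, phosphoglycerate mutase 1, moves the phosphate within phosphoglycerate (chr10:97426191-97433444, plus strand). In MCF10A it read 9762, 10893 and 9787 with siNT, 6205, 7306 and 7567 with miR-28, and 8451, 7153 and 7140 with miR-708. No mimic library reached siNT, and PGAM1 fell by 0.53 (SE 0.11, adjusted p = 0.00681) and 0.42 (SE 0.11, adjusted p = 0.0136). The second call was lost without siNT replicate 8 (adjusted p = 0.0534) or miR-708 replicate 8 (adjusted p = 0.0553) or 9 (adjusted p = 0.0590), and with library-size scaling (adjusted p = 0.0533). In RPE-1 it read 29335, 30090 and 26854 with siNT, 16480, 31900 and 23508 with miR-28, and 25277, 25516 and 25991 with miR-708. Replicate 2 with miR-28 exceeded all siNT libraries, and neither difference was called, at -0.31 (SE 0.19, adjusted p = 0.205) and -0.17 (adjusted p = 0.471). Without that replicate the first was -0.55 (adjusted p = 0.0121), and without replicate 1 it was -0.0690 (adjusted p = 0.701). The annotation names 13 PGAM1 pseudogenes, of which 1 is listed.

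ENO1, enolase 1, makes phosphoenolpyruvate (chr1:8861000-8879190, minus strand) and was called in RPE-1 only. The difference of its fold changes, RPE-1 minus MCF10A, was called with neither mimic. It was -0.62 with miR-28 (adjusted p = 0.0553) and -0.42 with miR-708 (adjusted p = 0.150). MCF10A read 52338, 63696 and 47608 with siNT, 43833, 55144 and 63059 with miR-28, and 54342, 51503 and 56697 with miR-708. These groups overlapped fully, with log2 fold changes of -0.02 (SE 0.17, adjusted p = 0.948) and -0.00, and both signs turned with library-size or upper-quartile scaling. RPE-1 read 54139, 55531 and 47771 with siNT, 27938, 41853 and 32525 with miR-28, and 42186, 37659 and 37388 with miR-708. All 6 mimic libraries were lower there. ENO1 fell by 0.64 (SE 0.15, adjusted p = 0.00607) and 0.42 (SE 0.15, adjusted p = 0.0317). The miR-708 call was lost without siNT replicate 1 or 2 (adjusted p = 0.0900 and 0.0947) or miR-708 replicate 2 or 3 (adjusted p = 0.0804 and 0.0919), and it was -0.11 with library-size scaling.

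PKM, pyruvate kinase, catalyses the last ATP-yielding step (chr15:72199029-72231819, minus strand), and it was the 1 member called in no comparison. In MCF10A it read 45570, 47750 and 40970 with siNT, 41251, 44685 and 50066 with miR-28, and 49087, 42839 and 47855 with miR-708. In RPE-1 it read 84649, 79749 and 73885 with siNT, 68384, 84506 and 72317 with miR-28, and 73150, 69681 and 69864 with miR-708. Its log2 fold changes were 0.02 and 0.06 in MCF10A and -0.09 and -0.16 in RPE-1, and both of the latter changed sign with library-size scaling. A gene value cannot separate the PKM1 and PKM2 splice forms.

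LDHA makes lactate and restores NAD+ (chr11:18394560-18408425, plus strand). MCF10A libraries read 90571, 102565 and 85745 with siNT, 73975, 83732 and 89778 with miR-28, and 91560, 80131 and 89496 with miR-708. The groups overlapped, at -0.17 (SE 0.17, adjusted p = 0.479) and -0.09 (adjusted p = 0.703). RPE-1 read 89276, 93858 and 85167 with siNT, 42485, 71929 and 52469 with miR-28, and 64236, 55323 and 52876 with miR-708. LDHA fell there, to 62.2% and 64.3% of the siNT mean, by 0.72 (SE 0.19, adjusted p = 0.00912) and 0.64 (SE 0.19, adjusted p = 0.0113). With library-size scaling the second was -0.32 (adjusted p = 0.176). The difference of the LDHA fold changes, RPE-1 minus MCF10A, was not called. It was -0.55 with miR-28 (adjusted p = 0.116) and -0.55 with miR-708 (adjusted p = 0.0842).

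**Figure D2:**
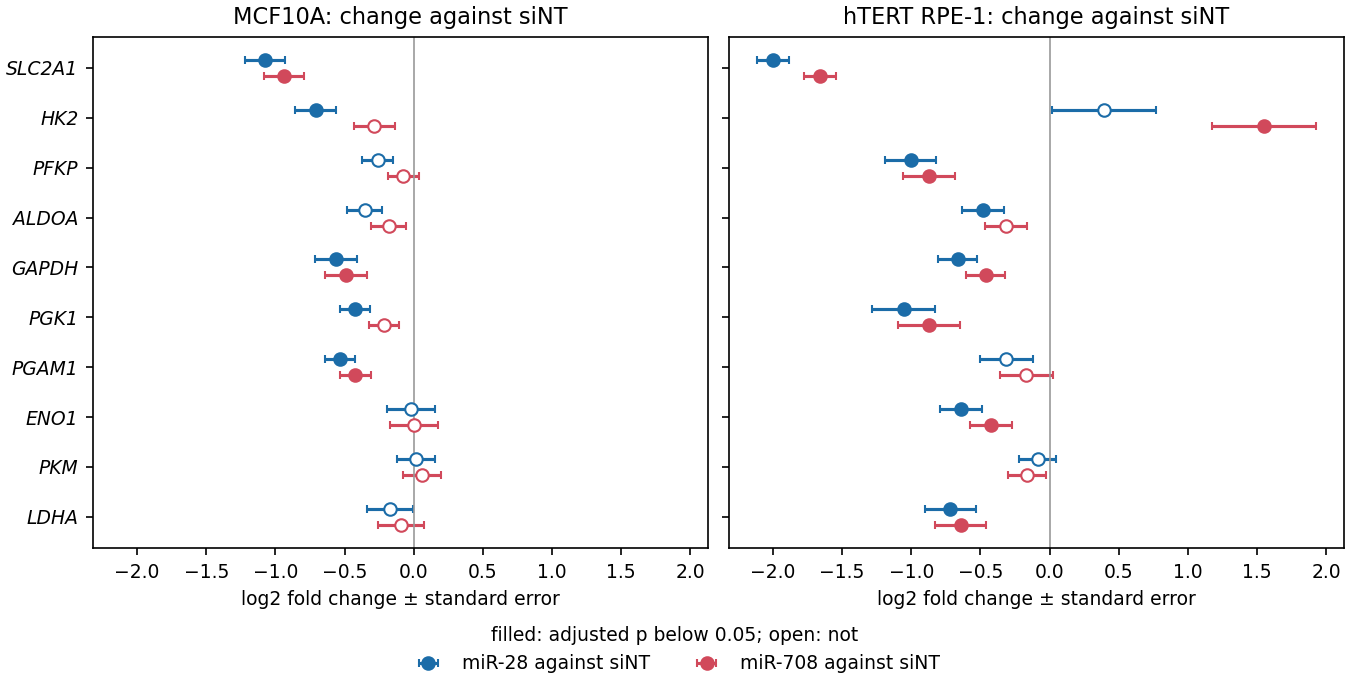
Log2 fold change of each member against siNT plus and minus its standard error, in MCF10A on the left and RPE-1 on the right, with miR-28 in blue and miR-708 in red, and filled points for an adjusted p below 0.05. SLC2A1 reaches -2.0 in RPE-1, PKM stays near 0 throughout, and HK2 lies at -0.71 and -0.29 in MCF10A against 0.39 and 1.55 in RPE-1.

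The mimics share a seed, and the members were compared between them directly. No member was called in MCF10A, where 1.55% of genes were, or in RPE-1, where 21.2% were, with limma. At an unadjusted p below 0.05, HK2 was past the threshold in MCF10A, and SLC2A1 and HK2 in RPE-1. HK2 was higher with miR-708 than with miR-28 by 0.42 in MCF10A (95% interval 0.10 to 0.75, adjusted p = 0.21) and by 1.15 in RPE-1 (95% interval 0.32 to 1.99, adjusted p = 0.0513). SLC2A1 in RPE-1 differed by 0.34 (95% interval 0.08 to 0.60, adjusted p = 0.0617). With the replicate block, which pairs these libraries in RPE-1, SLC2A1 (adjusted p = 0.0478) and HK2 (adjusted p = 0.0286) were called. Without miR-28 replicate 2, 3 members were called, HK2 at 1.69 (adjusted p = 0.000499), SLC2A1 at 0.49 (adjusted p = 0.00283) and PGK1 at 0.48 (adjusted p = 0.0341). Without miR-28 replicate 1, none was called, with HK2 at 0.65 (adjusted p = 0.0917), SLC2A1 at 0.25 (adjusted p = 0.185) and PGK1 at -0.0379 (adjusted p = 0.922). The other differences ran from 0.02 to 0.21 in MCF10A and from -0.08 to 0.21 in RPE-1. Their intervals are wide. For LDHA they ran from -0.28 to 0.44 in MCF10A and from -0.33 to 0.49 in RPE-1.

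The fold changes were then compared between the lines as RPE-1 minus MCF10A. With miR-28, 2 members were called, beside 23.4% of the 13339 genes tested in both lines. SLC2A1 differed by -0.92 (SE 0.19, adjusted p = 0.00152) and PFKP by -0.74 (SE 0.22, adjusted p = 0.0196), both lower in RPE-1. The PFKP call was lost without RPE-1 siNT replicate 1 (adjusted p = 0.060) or 2 (adjusted p = 0.070). HK2 differed by 1.10 (SE 0.40, adjusted p = 0.0636), by 1.60 without RPE-1 miR-28 replicate 1 (adjusted p = 0.000478) and by 0.57 without replicate 2 (adjusted p = 0.127). ENO1 differed by -0.62 (adjusted p = 0.0553) and was called in 8 of 24 alternatives. PGK1 differed by -0.63 (adjusted p = 0.0792), by -0.93 without RPE-1 miR-28 replicate 2 (adjusted p = 0.00164) and by -0.41 without replicate 1 (adjusted p = 0.202). With the replicate block, which pairs the siNT and miR-28 libraries in MCF10A only, 5 members were called, the added ones being HK2 (adjusted p = 0.0279), PGK1 (adjusted p = 0.0313) and ENO1 (adjusted p = 0.0405). With miR-708, 4 members were called, beside 39.8% of genes. HK2 differed by 1.84 (SE 0.40, adjusted p = 0.00258), SLC2A1 by -0.72 (SE 0.19, adjusted p = 0.00434), PFKP by -0.80 (SE 0.22, adjusted p = 0.00732) and PGK1 by -0.66 (SE 0.25, adjusted p = 0.0479). The PGK1 call held in 10 of 24 alternatives, with adjusted p from 0.0042 to 0.149. For GAPDH the difference was -0.10 with miR-28 (95% interval -0.54 to 0.33) and 0.03 with miR-708 (95% interval -0.40 to 0.46). Over the alternatives it ran from -0.189 to -0.013 with miR-28 and from -0.051 to 0.203 with miR-708.

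The order of levels was taken per kilobase of the reference transcript with siNT, separately in each line because the tables were scaled separately. In MCF10A the order was GAPDH at 55721, LDHA 41482, ENO1 30627, PKM 19420, ALDOA 9849, PGAM1 5631, PGK1 3651, PFKP 1611, SLC2A1 664 and HK2 445. No neighbours in this order overlapped in their 3 libraries. The order in RPE-1 was GAPDH at 85417, LDHA 39908, PKM 34459, ENO1 29467, ALDOA 17022, PGAM1 15960, SLC2A1 6438, PGK1 4702, PFKP 3500 and HK2 311, and only ALDOA and PGAM1 overlapped. SLC2A1 thus stood second to last in MCF10A and above PGK1 and PFKP in RPE-1. These places depend on the transcript length used. By value alone, PGK1 stood above SLC2A1 in RPE-1, at places 182 and 195 among all listed genes. In MCF10A, HK2 then stood above SLC2A1, at places 2513 and 2842.

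Together the 10 members took 1.12% of the summed signal with siNT in MCF10A (SD 0.0902, n = 3), 1.03% with miR-28 (SD 0.110, n = 3) and 1.10% with miR-708. In RPE-1 they took 1.24% (SD 0.0735, n = 3), 0.905% (SD 0.193, n = 3) and 1.14% (SD 0.0663, n = 3). The RPE-1 difference of -0.338 percentage points with miR-28 gave p = 0.1 in an exact two-sided permutation test, the smallest p that 3 against 3 allows. With ribosomal RNA and mitochondrial genes left out of the summed signal it was -0.345, with the same exact p = 0.1. The other 3 differences over all listed genes, of -0.107 in RPE-1 and -0.0905 and -0.0143 in MCF10A, gave exact p = 0.2, 0.4 and 0.8. Leaving out 1 library, the RPE-1 difference with miR-28 ran from -0.436 without miR-28 replicate 2 to -0.243 without miR-28 replicate 1. With miR-28 in MCF10A the difference ran from -0.144 to -0.0340 over calculations that left out 1 library, the first without miR-28 replicate 9 and the second without miR-28 replicate 7, and leaving out siNT replicate 8 brought it nearly as close to 0. GAPDH, LDHA, PKM and ENO1 carry most of this sum, so it says little of SLC2A1 or HK2.

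Several steps have more than 1 isoenzyme, and the ratio of the member to its partner was formed per kilobase in each library. The 20 differences from siNT were tested with exact two-sided permutation tests whose smallest adjusted p is 0.182, so none could pass 0.05, and they are given as values. HK2 against HK1, the constitutive hexokinase, stood at geometric means of 0.118 with siNT, 0.180 with miR-28 and 0.427 with miR-708 in RPE-1, and only the last was free of overlap with siNT. The log2 difference with miR-28 was 0.61, or 1.14 without miR-28 replicate 1 and 0.0861 without replicate 2. The MCF10A ratios were 0.163, 0.117 and 0.157, and overlapped. For glucose uptake in RPE-1, SLC2A1 against SLC2A3 (GLUT3) went from 15.1 with siNT to 2.13 and 3.19 with no overlap. The same ratio in MCF10A was 19.3, 33.8 and 36.9 with overlapping libraries. Its log2 differences there were 0.81 with miR-28, or 0.25 without miR-28 replicate 7, and 0.94 with miR-708, or 0.39 without miR-708 replicate 9 and 1.48 without replicate 8. LDHA against LDHB, the heart form of lactate dehydrogenase, was 1.90, 2.47 and 2.76 in MCF10A, with both mimics above siNT, and 3.92, 3.31 and 3.47 in RPE-1, with overlap. PFKP against the sum of PFKL and PFKM was 1.84, 1.33 and 1.67 in RPE-1, below siNT with either mimic, and 1.10, 0.951 and 1.16 in MCF10A. With miR-28 its log2 difference in RPE-1 was -0.47, or -0.29 without miR-28 replicate 1, and in MCF10A it was -0.21, or -0.12 without siNT replicate 7 and -0.14 without miR-28 replicate 8. ALDOA against ALDOC was 34.0, 86.2 and 91.1 in MCF10A, and in RPE-1 it rested on ALDOC values of only 9.32 to 97.3. With miR-708 in RPE-1, the log2 difference without 1 library ran from -0.19 to -0.0912 for PFKP (the latter without miR-708 replicate 2), from -0.28 to -0.0592 for LDHA (without siNT replicate 3 and 2) and from 0.40 to 1.04 for ALDOA (without miR-708 replicate 3 and 2).

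**Figure D3:**
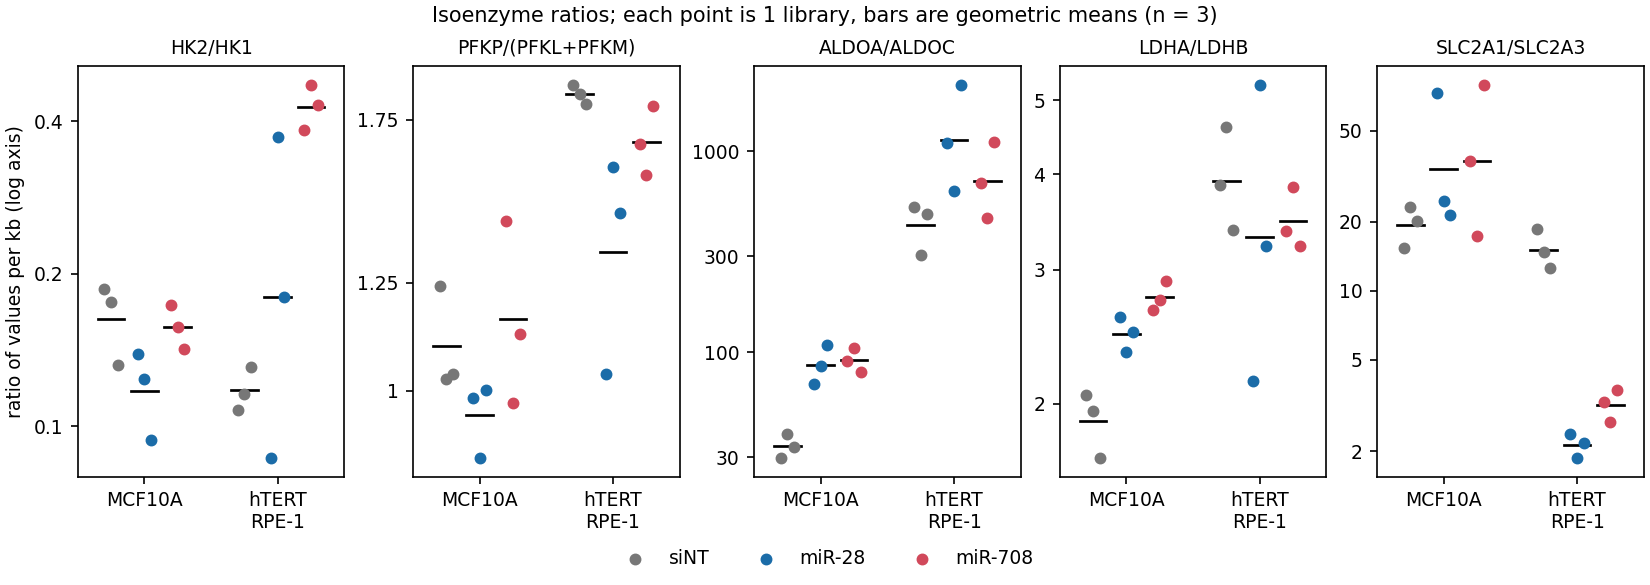
Ratio of a member to its isoenzyme per kilobase of transcript in each library, on a log axis, by cell line and group, with each point 1 library and each bar a geometric mean of 3 (siNT grey, miR-28 blue, miR-708 red). In RPE-1 the HK2 to HK1 ratio reaches a geometric mean of 0.427 with miR-708 from 0.118 with siNT, and the SLC2A1 to SLC2A3 ratio drops from 15.1 to 2.13 and 3.19.

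The partners moved as follows. SLC2A3 read 170, 112 and 120 with siNT in MCF10A, 18.8, 48.9 and 49.3 with miR-28 and 45.4, 72.1 and 14.0 with miR-708. In RPE-1 it read 1348, 1701 and 1884 with siNT, 2265, 4028 and 2644 with miR-28 and 2428, 2962 and 2029 with miR-708. SLC2A3 thus fell in MCF10A, by 1.85 (adjusted p = 0.0302) and 1.84 (adjusted p = 0.0221), and rose in RPE-1, at 0.83 (adjusted p = 0.0087) and 0.59 (adjusted p = 0.0323). The line difference was 2.68 (adjusted p = 0.00436) and 2.42 (adjusted p = 0.00383). LDHB fell in all 4 comparisons, by 0.55 and 0.64 in MCF10A and by 0.47 with either mimic in RPE-1. HK1 differed little, from -0.22 to -0.31, and was called in 1 comparison, with miR-708 in RPE-1 (adjusted p = 0.0083).

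Of the other glycolytic enzymes and isoenzymes, 13 were tested in MCF10A and 14 in RPE-1. With miR-28, 5 fell and 1 rose in MCF10A, and 7 fell and 2 rose in RPE-1. With miR-708, 6 fell and 2 rose in either line. Counts for this list and those that follow stand beside 22.7% (miR-28) and 32.8% (miR-708) of all tested genes called in MCF10A and 46.8% and 62.1% in RPE-1. The 8 of 14 called with miR-708 in RPE-1 are under that share, and nothing particular to a list is read from these counts. TPI1, the triose phosphate isomerase that feeds GAPDH, fell by 0.54 and 0.62 in MCF10A and by 1.23 and 1.19 in RPE-1. ADPGK, an ADP-dependent glucokinase, fell by 0.75 and 0.74 in MCF10A and by 1.88 and 1.81 in RPE-1. Its libraries in RPE-1 ran from 1644 to 1996 with siNT and from 453 to 554 with a mimic. GPI, glucose 6-phosphate isomerase, was called in all 4 comparisons, at -0.49, -0.46, -0.99 and -0.84. ALDOC fell by 1.69 and 1.59 in MCF10A and by 1.83 with miR-28 in RPE-1. BPGM, which makes 2,3-bisphosphoglycerate, rose in all 4, at 0.64, 0.63, 0.81 and 0.66.

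The list of other glucose transporters also holds genes that mainly carry other substrates, so its counts are not counts of glucose carriers. In MCF10A, of 9 tested, 2 rose and 2 fell with either mimic. In RPE-1, of 8 tested, 3 fell with miR-28, 4 fell with miR-708 and 2 rose with each. Genes were named by their mean over the 4 comparisons, so a gene that moved in opposite directions in the lines can go unnamed. SLC2A13, a proton myo-inositol transporter, rose in all 4, at 0.73, 0.78, 0.87 and 1.47. SLC2A6 fell in RPE-1, at -2.36 and -2.71. TIGAR, a phosphatase that lowers fructose 2,6-bisphosphate, was the only called gene of the 4 tested enzymes of that metabolite. It rose in MCF10A by 1.07 and 0.65 on the log2 scale and in RPE-1 by 0.87 with miR-28, and was at 0.32 with miR-708 (adjusted p = 0.067).

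The pentose phosphate pathway branches off at glucose 6-phosphate and makes NADPH and ribose. Of its 8 tested genes, 6 fell in each of the 4 comparisons, and RPIA alone rose, in RPE-1. Their median log2 fold changes were -0.45 and -0.56 in MCF10A and -0.90 and -1.18 in RPE-1, further from 0 than the members' medians in the same comparisons. TKT, transketolase, fell by 1.43 and 1.68 in RPE-1 and by 0.86 and 1.11 in MCF10A. PGD fell by 1.03 and 1.33 in MCF10A and by 1.49 and 1.40 in RPE-1.

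**Figure D4:**
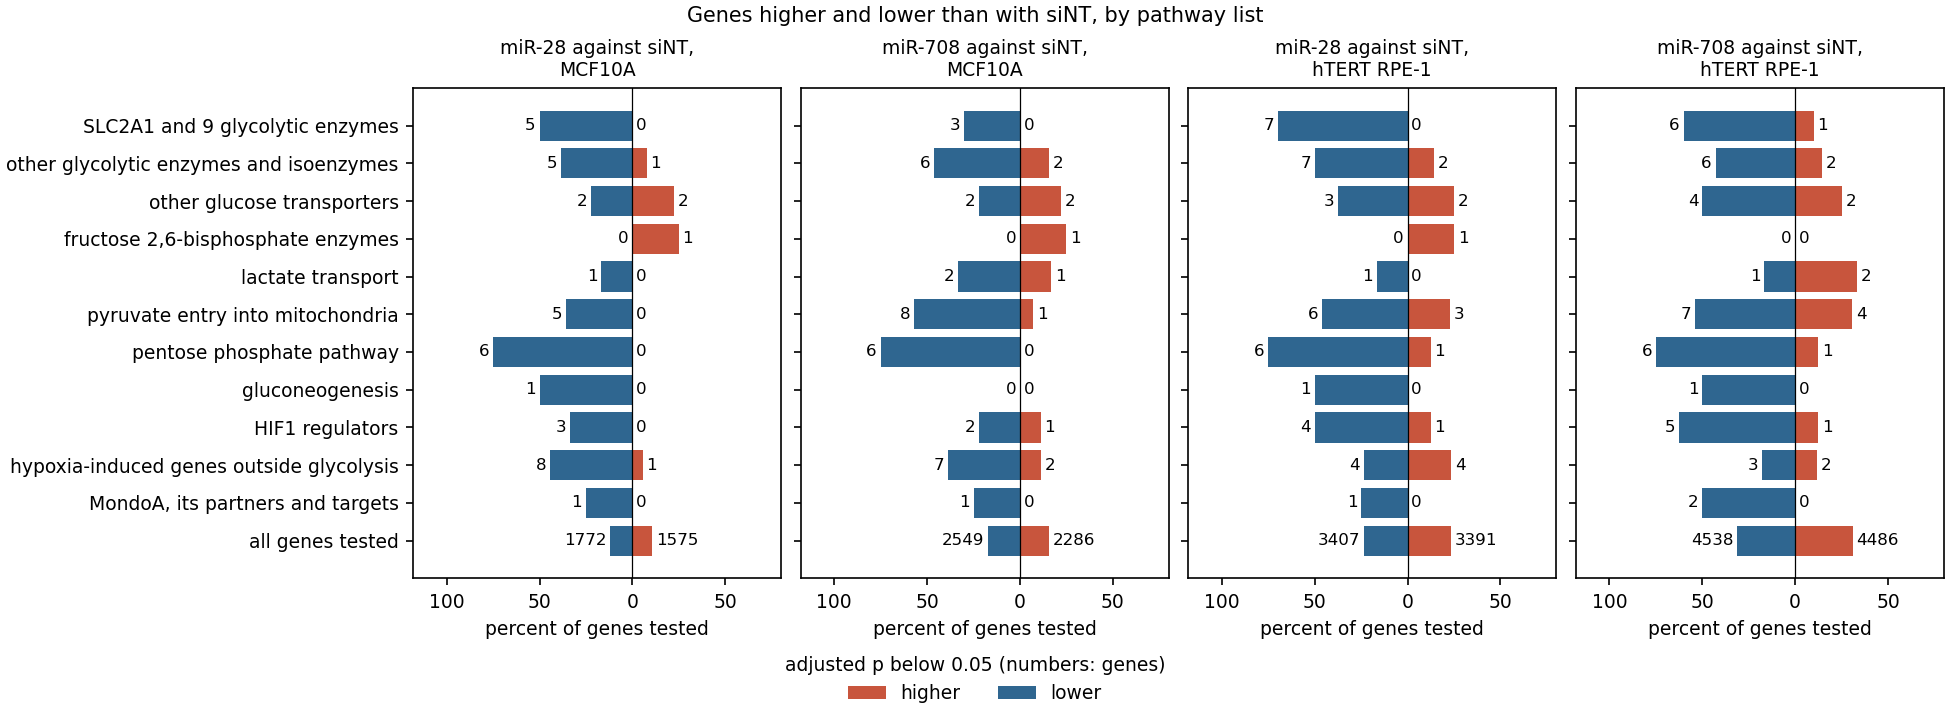
Percent of the tested genes of each pathway list called lower (blue, to the left) and higher (red, to the right) at an adjusted p below 0.05, by cell line and mimic, with the number of genes beside each bar and all tested genes in the bottom row. Of 10 members 5, 3, 7 and 6 were lower in MCF10A with miR-28 and miR-708 and in RPE-1 with the same mimics, and 6 of 8 pentose phosphate genes were lower in each.

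After glycolysis, pyruvate is turned to lactate or enters mitochondria. Of 14 genes for pyruvate entry in MCF10A, 5 fell with miR-28, and 8 fell and 1 rose with miR-708. In RPE-1, of 13, these counts were 6 lower and 3 higher, then 7 lower and 4 higher. DLAT, a core subunit of pyruvate dehydrogenase, fell by 1.0, 1.2, 1.04 and 1.15 in the 4 comparisons. PDK1, a kinase that inhibits that complex, fell by 0.64, 0.76, 0.78 and 0.64. Of 6 genes for lactate transport, SLC16A7 (MCT2) fell in all 4, by 1.44, 1.62, 1.8 and 1.17. SLC16A4 rose with miR-708, at 1.27 in MCF10A and 0.62 in RPE-1, and its 0.29 and 0.54 with miR-28 were not called.

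Gluconeogenesis runs the pathway backwards, and 2 of its own enzymes were tested. PCK2 fell with miR-28 in MCF10A, at -1.49, and G6PC3 fell in RPE-1, at -0.93 and -0.94, and the other 5 values were not called.

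HIF1 drives several members under low oxygen. HIF1A, its oxygen-regulated subunit, fell in all 4 comparisons, by 0.51 and 0.67 in MCF10A and by 0.93 and 1.34 in RPE-1. VHL, which marks HIF1A protein for destruction, also fell in all 4, by 0.45, 0.50, 0.81 and 0.81. Of the 9 tested HIF1 regulators in MCF10A, 3 fell with miR-28, and 2 fell and 1 rose with miR-708. Of 8 in RPE-1, 4 and 5 fell and 1 rose with each. Among genes known to rise in hypoxia other than the members, 8 of 18 fell and 1 rose with miR-28 in MCF10A, and 7 fell and 2 rose with miR-708. In RPE-1, of 17, 4 fell and 4 rose with miR-28, and 3 fell and 2 rose with miR-708, a smaller share than the 62.1% of all tested genes called there.

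CA9, a carbonic anhydrase and common hypoxia marker, read 136, 229 and 138 with siNT in MCF10A, 8.04, 7.46 and 27.6 with miR-28 and 23.3, 42.1 and 35.3 with miR-708. CA9 fell there by 3.66 and 2.28. The first rests on few reads, since 3 reads are worth 4.03 in miR-28 replicate 7 and 2.49 in replicate 8. In RPE-1 CA9 read 535, 759 and 477 with siNT and 25.1, 292 and 73.4 with miR-28, a fall of 2.81. These miR-28 libraries were widely spread, with replicate 1 lowest and replicate 2 highest, and the fall is not given without either. The difference with miR-708 in RPE-1 was -0.87 (adjusted p = 0.301). ANGPTL4, a secreted lipase inhibitor also known to rise in hypoxia, went the other way in RPE-1. It read 26.8, 41.6 and 17.6 with siNT, 325, 1130 and 280 with miR-28 and 728, 1225 and 939 with miR-708, and rose by 4.07 and 5.07 on the log2 scale. In MCF10A its values of -0.57 and -0.33 were not called. VEGFA fell in all 4, by 0.59, 0.66, 1.0 and 0.59. The hypoxia list thus did not move as 1 group in RPE-1.

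Of 4 genes around MondoA, the glucose-sensing factor, 1 fell in each of 3 comparisons, not always the same gene, and 2 fell with miR-708 in RPE-1. MLXIP, the gene of MondoA itself, fell with either mimic in RPE-1 and was not called in MCF10A. Its line differences were -0.85 with miR-28 (adjusted p = 0.000783) and -0.87 with miR-708 (adjusted p = 0.000198). MLX, the partner of MondoA, fell by 0.57 and 0.65 in MCF10A and by 0.40 with miR-708 in RPE-1. TXNIP, the best known target of MondoA, was called in none.

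Promoters of the members were read from RefSeq (GRCh38.p14), 250 bases before to 50 after each start, because many of these genes share known control elements. The HIF1 core, ACGTG or GCGTG on either strand, was in 8 of 10 members, all but PFKP and PGAM1, beside 62.1% of promoters of tested genes in MCF10A and 62.6% in RPE-1. The longer palindrome CACGTG, an E-box that contains ACGTG, was in GAPDH and LDHA only, beside 9.96% of promoters. Their windows of 30 bases are shown with the E-box in capitals, since these are the members that hold it.

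GAPDH, chr12:6535171-6535200, plus strand: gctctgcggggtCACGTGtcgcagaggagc
LDHA, chr11:18394366-18394395, plus strand: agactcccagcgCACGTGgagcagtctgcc
LDHA, chr11:18394464-18394493, plus strand: cagcccgactcaCACGTGggttcccgcacg

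The genes whose levels were most like those of the members were ranked among 13329 other genes tested in both lines. The measure was Pearson's r over the 18 libraries with the mean of the members' z scores, taken within each line, and all genes share these libraries and their scaling. The most alike were PDIA4 (r = 0.920), TMED3 (r = 0.905), HSPA5 (r = 0.899), MYDGF (r = 0.895) and PLOD1 (r = 0.892). Of the other pathway genes, TPI1 stood at place 11 (r = 0.882), GPI at 15 (r = 0.865) and CA9 at 17 (r = 0.862). Among the members, which enter the mean themselves, r ran from 0.961 for PGK1 to 0.661 for PKM and 0.400 for HK2. HK2 followed the others in MCF10A (r = 0.792 over 9 libraries) and not in RPE-1 (r = 0.020 over 9 libraries).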

How the data were processed

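PolyA+ RNA from 18 libraries was sequenced as paired-end reads. The authors trimmed the reads, aligned them to hg38 with HISAT2 2.1.0 and quantified transcripts of RefSeq release 93 by expectation maximisation in Partek. The deposited signal is 1 value per gene and library, an estimated read number scaled by a size factor of the median-of-ratios kind, with 1 table per cell line. Between 81% and 87% of low values were whole within a tolerance of 0.02, so whole reads were not recovered and no count model was run. Tables of the authors' own comparisons (ratio, log2 ratio, p-value and FDR) were not used.

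A gene was kept if 3 or more of the 9 libraries of its line had values of 10 or more. Values were taken as log2(value + 1), and limma 3.58.1 in R 4.3.3 fitted 3 group means per line, with trend in the empirical Bayes step and Benjamini-Hochberg adjustment over all genes of the line. Differences between lines used the 2 fold changes and their standard errors with Welch–Satterthwaite degrees of freedom. The fits were also run on simulated data with independent noise for each gene and library. Those data hold no deviations shared by the genes of a library or by a replicate number, so they do not bear on such deviations here. Tables and figures were made in Python 3.11.15 (matplotlib 3.10.9, numpy 2.4.6, pandas 2.3.3). Depth was estimated from the step between low values.

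The members and the pathway lists were chosen with earlier results of these data known, so no list is independent support. The text names the 10 members, up to 3 genes of each other list with the largest mean change over the 4 comparisons with siNT, the partners in isoenzyme ratios, and the 5 genes most like the members. GPI, BPGM and RPIA were added after their values were seen. One gene is not reported here, and the counts over lists include it.

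Whether libraries with the same number in the labels deviate together from their groups was checked across genes. Same-number correlations were above 0.1 for every pair of siNT with miR-28 (0.11 to 0.26) and with miR-708 (0.11 to 0.30) in MCF10A. They were also above it between the mimics in RPE-1 (0.13 to 0.28), so the numbers were taken to pair these groups. In MCF10A, however, siNT replicate 8 with miR-28 replicate 9 reached 0.110, level with 0.111 for replicate 9 in both. The main fits do not use the numbers. The lowest correlations of the other 3 comparisons were 0.025, 0.021 and 0.042. Alternatives were a pseudocount of 8, no filter, library-size and upper-quartile scaling, no trend, the replicate block, a further limit of 2-fold, and leaving out each library.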

Additional observations from a re-analysis of the deposited data

Results flagged for a closer look

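Results were set apart here where the difference between the fold changes of the 2 cell lines, taken as RPE-1 minus MCF10A on the log2 scale, itself passed the test over 13339 genes. With miR-28 these were SLC2A1 at -0.92 and PFKP at -0.74. With miR-708 they were SLC2A1 at -0.72, PFKP at -0.80, PGK1 at -0.66 and HK2 at 1.84. HK2 is the 1 member of these 4 whose difference is positive. It was called higher in RPE-1 and was at -0.29 in MCF10A, where it was not called. The background was 23.4% and 39.8% of genes, so 2 of 10 members with miR-28 and 4 of 10 with miR-708 do not exceed it clearly. The PGK1 call with miR-708 held in 10 of 24 alternatives, and the PFKP call with miR-28 in 22 of 24.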

How the results depend on the processing

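SLC2A1 was called against siNT in both lines with both mimics under every alternative other than the 2-fold limit. With that limit as well, the members called were 1 (miR-28) and 0 (miR-708) in MCF10A, 3 and 2 in RPE-1, and 0 and 1 for the line differences. Under library-size scaling the median over all genes moved to 0.12 and 0.14 in MCF10A and to 0.09 and 0.32 in RPE-1, and fold changes under it are relative to that shift. It left 1 member called with miR-708 in MCF10A and 3 in RPE-1, and called 3 between the mimics in RPE-1, where upper-quartile scaling called 1. Signs turned with library-size scaling for ENO1 in MCF10A (0.0917 and 0.14, and 0.0521 and 0.0503 with upper-quartile scaling), for PFKP (0.0676) and LDHA (0.0504) with miR-708 in MCF10A, and in RPE-1 for PKM with miR-28 (0.000763) and for ALDOA (0.00459), PGAM1 (0.15) and PKM (0.16) with miR-708. The cause was not tested.

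With the replicate block, the members called were 6 with miR-28 and 4 with miR-708 in MCF10A, 1 and 2 between the mimics in MCF10A and RPE-1, and 5 for the line difference with miR-28. The block left the counts at 7 and 7 members against siNT in RPE-1, where the numbers do not pair the libraries, and at 4 for the line difference with miR-708. Calls over all tested genes rose with it too, from 3347 to 4408 and from 4835 to 5818 in MCF10A, from 228 to 643 and from 3084 to 3315 between the mimics, and from 3127 to 3757 for the line difference with miR-28.

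Leaving out each library in turn gave 3 to 6 members called with miR-28 and 1 to 3 with miR-708 in MCF10A, 0 to 3 between the mimics in RPE-1 and 1 to 5 for the line difference with miR-28. The log2 fold change of ENO1 in MCF10A ran from -0.14 to 0.12 with miR-28 and from -0.0929 to 0.12 with miR-708, that of PKM from -0.0573 to 0.0824 and from -0.00414 to 0.12, that of PFKP with miR-708 from -0.14 to 0.0139, and that of HK2 with miR-28 in RPE-1 from -0.14 to 0.90. The summed share with miR-708 in MCF10A differed by -0.0477 to 0.0370 percentage points. The log2 ratios with miR-708 in MCF10A differed by -0.21 to 0.0415 for HK2 to HK1 and by -0.0659 to 0.20 for PFKP to PFKL and PFKM, and that of LDHA to LDHB with miR-28 in RPE-1 by -0.58 to 0.0662.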
